A study of Mus musculus with 6 samples.

Results

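Weaning was followed in the ileum, the last stretch of the small intestine, of conventional C57BL/6J mice kept under specific pathogen free (SPF) conditions, by setting 1 postweaned sample against 1 preweaned sample. Both carried a conventional microbiota, neither had a transgene or treatment, and each was read on 3 arrays in 1 colour. A gene entered when its probe was detected (deposited detection p under 0.05) on most arrays of at least 1 side, which 11381 genes of the 12196 above background anywhere in the series did. Of these, 8863 were above background before and after weaning, 2258 only after and 260 only before. The series also holds 2 germ-free preweaned samples, 1 germ-free postweaned sample and 1 preweaned sample with a humanized microbiota, used here for reference. The sources used here do not give the age or sex of the SPF mice, the day of weaning or how many mice each RNA came from.

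Suckling mice live on milk, which is rich in fat and lactose and carries maternal antibodies, and their ileal enterocytes take up milk proteins by endocytosis and digest them in large lysosomes. At weaning solid food rich in starch and sucrose replaces milk, the suckling enterocytes are replaced by adult ones with a brush border that digests at the cell surface, and the bacterial community changes. In the same period lymphocytes settle between and beneath the epithelial cells, while milk antibodies cease to arrive and the young mouse makes its own.

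All levels below are log2 of the quantile-normalised intensity plus an offset of 50, as mean ± SD of the 3 arrays of an SPF sample, and differences are postweaned minus preweaned. The 3 arrays of an SPF sample read the same RNA sample, so their SD is technical, and no difference between the 2 samples has a replicate check across mice. The only replicated group of the series is the germ-free preweaned pair, whose gap for the same gene is used below as a yardstick. The first sample of that pair holds 2 sets of 3 array columns whose origin the sources used here do not give, and its values are means over all 6. Arrays of a sample correlated at 0.979 or more across probes, and those of different samples between 0.845 and 0.870. The median SD between arrays was 0.133 before and 0.166 after weaning. Detection was uneven: 32.2% to 42.5% of probes were detected on the preweaned arrays and 45.7% to 50.3% on the postweaned arrays, and the lowest detected intensity was 176 to 278 before and 64 to 80 after. A dim gene could therefore pass more readily after weaning. Where no array of the dimmer sample detected a probe, the fold is a lower limit, written "at least".

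The median difference over all genes was -0.03, and 48.3% of genes were higher after weaning. In all 2322 genes (20.4%) differed by 2-fold or more. Of the genes tested 1285 (11.3%) were higher after weaning and 1037 (9.11%) were lower, and the 3 arrays of one sample lay wholly above those of the other in 1283 (11.3%) and 1013 (8.9%) of the genes tested. At any size of difference the arrays did not overlap in 31.9% of genes, with the postweaned sample higher, and in 31.4%, with it lower. With undetected genes at their bounds, 8.82% of genes were higher and 8.67% lower by 2-fold. At 4-fold or more the counts were 321 (2.82%) and 228 (2%). Among the 8863 genes above background on both sides, 754 (8.51%) were higher and 872 (9.84%) lower by 2-fold. Higher genes outnumbered lower ones among all genes tested but not among these, and with median centring of the arrays 1163 genes were higher and 1255 lower. In 1852 genes (16.3%) the 2-fold difference was also larger than the gap between the germ-free preweaned samples, 1070 (9.4%) of them higher and 782 (6.87%) lower. limma, fitted to all 6 samples with 1 residual degree of freedom, called 0 genes at an adjusted p under 0.05. The smallest adjusted p from limma was 0.943, and 626 genes had p under 0.05 before adjustment. With both column sets of the first germ-free preweaned sample as separate samples, limma had 2 residual degrees of freedom, a smallest adjusted p of 0.208 and again 0 calls. The differences are therefore given as measured in these samples. The background for each 2-fold list count below is 11.3% of all genes higher and 9.11% lower.

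**Figure D1:**
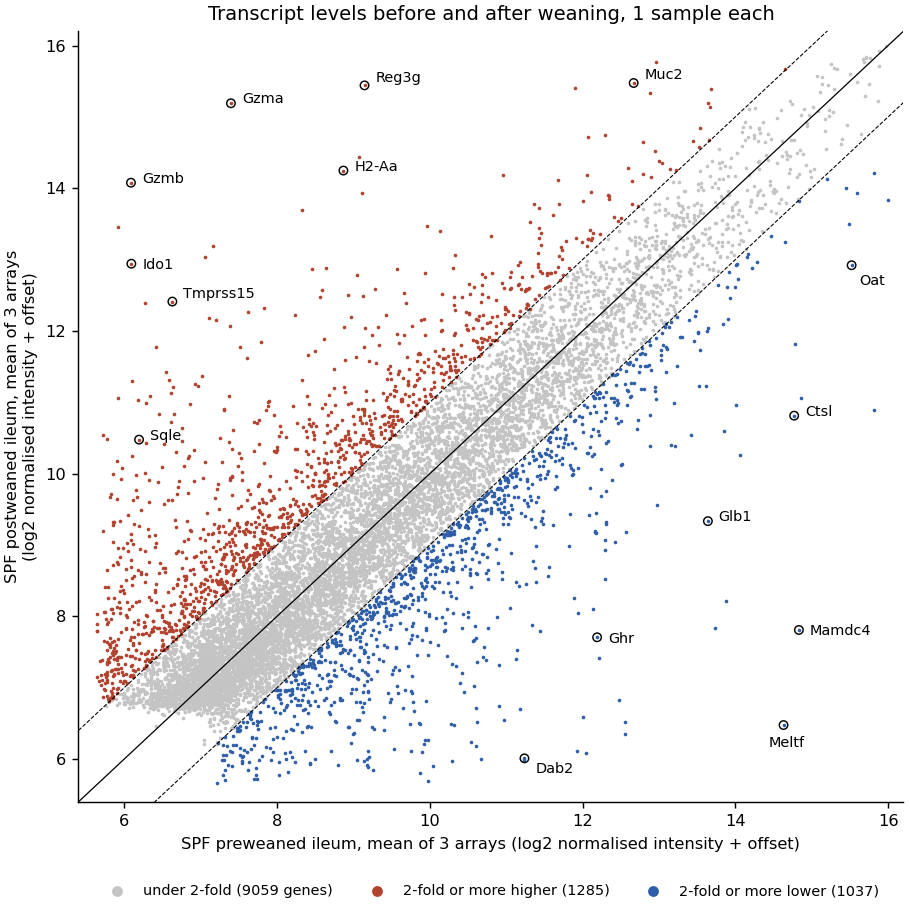
Level of each of the 11381 genes in the SPF preweaned sample (horizontal) and the SPF postweaned sample (vertical), each the mean of 3 arrays on the log2 scale. The solid line marks equal levels, the dashed lines a 2-fold difference, and the circled genes run from Gzma, 7.40 before and 15.19 after weaning, to Meltf, 14.63 before and 6.48 after.

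Among the genes with the largest excess after weaning were several of lymphocytes and of antimicrobial and interferon-linked defence. Gzma, which encodes the granule protease granzyme A of cytotoxic lymphocytes, read 7.42, 7.49 and 7.29 on the preweaned arrays and 15.34, 15.12 and 15.11 on the postweaned arrays, 222-fold higher. Gzmb, granzyme B, was detected on no preweaned array and was at least 102-fold higher. Reg3g, a secreted lectin that kills Gram-positive bacteria, was 78.6-fold higher, and Ccl5, a chemokine secreted by lymphocytes, at least 66.4-fold. The arrays of the leading genes do not overlap between the samples, which was a condition of their choice. Also among the 15 largest were Rgs1, a regulator of G protein signalling in lymphocytes (65.0-fold), Ubd, a ubiquitin-like modifier (at least 49.8-fold), Ido1, which degrades tryptophan (at least 46.6-fold), and H2-Aa, an MHC class II chain (41.6-fold). Epithelial genes in that group were Tmprss15, the enterokinase that activates trypsinogen (at least 32.3-fold), Car4, a membrane carbonic anhydrase (at least 31.7-fold), and Upp1, which cleaves uridine (41.3-fold). The remaining 4 were Pmp22, a membrane protein first known from myelin (40.9-fold), Itgae (33.5-fold), Ly6m (28.4-fold) and Oit1 (at least 27-fold).

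On the lower side the leading genes included endosomal, lysosomal and membrane proteins. Meltf, melanotransferrin, an iron-binding protein anchored in the cell membrane, read 14.57, 14.74 and 14.59 before weaning and was detected on no postweaned array, at least 236-fold lower. Mamdc4, known in the rat as endotubin, a protein of the apical endosomes of suckling enterocytes, went from 14.83 ± 0.10 to 7.81 ± 0.21, 130-fold lower. Snx8, a sorting nexin of endosomes, was 59.6-fold lower, Spp2, a secreted phosphoprotein, at least 56.0-fold, and Renbp, an epimerase of N-acetylglucosamine, 50.7-fold. Rab11fip5, an effector of the recycling endosome GTPase Rab11, was at least 36.2-fold lower, and Podxl, a sialomucin of apical membranes, at least 38.3-fold. Gpx3, an extracellular glutathione peroxidase, was 30.2-fold lower, a floor because it was saturated on all 3 preweaned arrays, and Clic6, of the chloride intracellular channel family, was 27.8-fold lower. Dpp7, a dipeptidyl peptidase of the lysosome, was 50.2-fold lower, but its postweaned arrays spread from 5.75 to 8.92. Trpm1, a cation channel, and Egfem1 were at least 22.5-fold and 22.4-fold lower, and for both the preweaned array 2 read about 1 log2 unit under the other two.

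**Figure D2:**
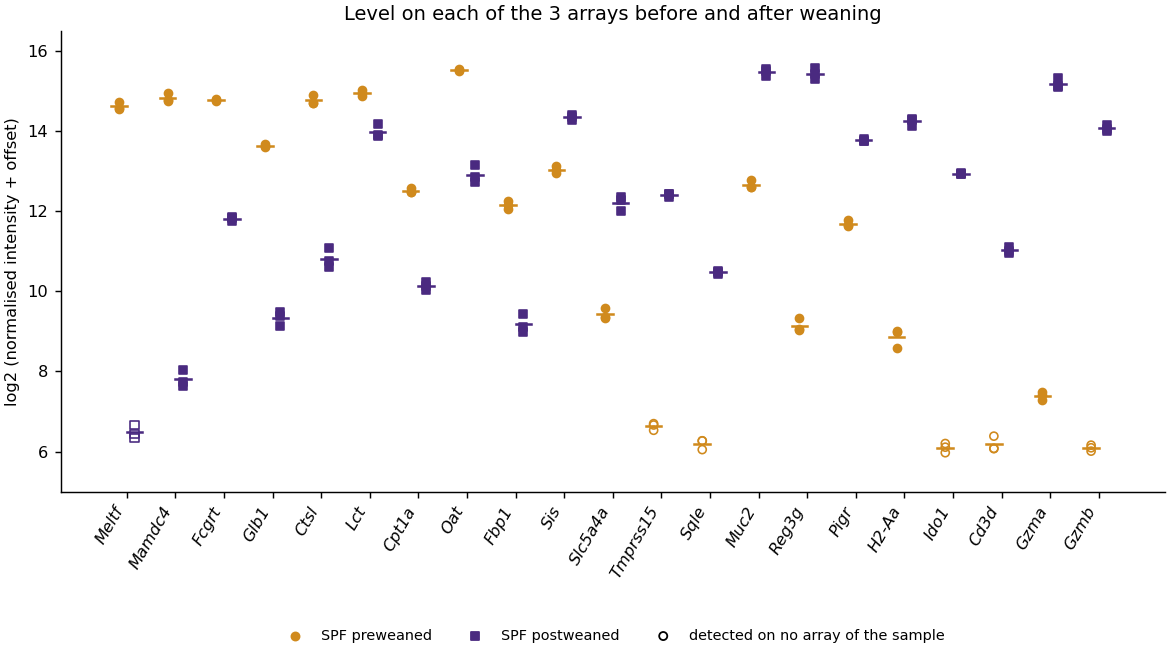
Level on each of the 3 arrays (points) and their mean (bars) for 21 genes in the SPF preweaned (circles) and SPF postweaned (squares) samples, on the log2 scale; open symbols mark genes detected on no array of that sample. Of the genes drawn Lct differs least (-0.97) and Meltf most (-8.15).

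The machinery for taking up milk proteins was lower as a group. Of 14 tested members of a list for suckling endocytosis, 7 were 2-fold or more lower and 1 was higher. Of all genes 9.11% were lower and 11.3% higher. The median difference was -1.08, against -0.03 for all genes. Dab2, a clathrin adaptor for apical receptors, read 11.24 ± 0.09 before weaning and was at least 22.5-fold lower after it. Folr1, a folate receptor, was at least 15.1-fold lower. Fcgrt, the neonatal Fc receptor that carries maternal IgG across the epithelium, stayed bright: it read 14.79 ± 0.03 before and 11.82 ± 0.05 after weaning, 7.82-fold lower. Cubn, cubilin, the ileal receptor for vitamin B12 bound to intrinsic factor, was 2.90-fold lower. The exception was Plb1, a phospholipase of the brush border, which was 18.9-fold higher, at 8.64 ± 0.10 before and 12.88 ± 0.16 after weaning.

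Most lysosomal genes were lower after weaning. Of 51 tested, 30 were 2-fold or more lower and 1 was higher, the median was -1.23, and in 39 members all 3 postweaned arrays lay below all preweaned arrays, against 31.4% of all genes. Glb1, the acid β-galactosidase of the lysosome, went from 13.64 ± 0.04 to 9.33 ± 0.18, 19.8-fold lower. Among the proteases, Ctsl (cathepsin L) was 15.5-fold lower and Lgmn (legumain) 14-fold. The glycosidases Hexa, Gaa and Gla were 9.52-fold, 7.63-fold and 6.73-fold lower, and Ctns, the transporter that exports cystine from the lysosome, was 6.26-fold lower. Membrane proteins moved the same way, with Mcoln1, a calcium channel of the lysosome, at 11.46 ± 0.14 before and 9.33 ± 0.28 after. The member that was higher was Ctsc, dipeptidyl peptidase I, which activates granzymes in lymphocyte granules, at 8.94 ± 0.25 before and 10.03 ± 0.26 after weaning.

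Many lysosomal genes carry in their promoter the CLEAR element bound by the factor TFEB, whose 8-letter core TCACGTGA was searched in windows from 250 bases before to 50 after the gene start (RefSeq, GRCm38.p6), where both strands read alike. The core was present in 5 of the 40 lysosomal genes with a window (12.5%) and in 195 of 8961 tested genes with a window (2.18%). Tfeb itself differed by -0.33. The windows of 4 lower members are shown around the core, in capitals, on the strand of the gene.
Gla, chrX:134601190-134601255, minus strand: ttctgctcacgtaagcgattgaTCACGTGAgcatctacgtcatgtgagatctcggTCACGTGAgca
Mcoln1, chr8:3500437-3500516, plus strand: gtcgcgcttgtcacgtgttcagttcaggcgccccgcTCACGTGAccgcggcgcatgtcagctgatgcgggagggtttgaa
Ctsa, chr2:164833724-164833803, plus strand: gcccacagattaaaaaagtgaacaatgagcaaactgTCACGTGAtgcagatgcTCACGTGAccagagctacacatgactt
Ctsd, chr7:142387883-142387962, minus strand: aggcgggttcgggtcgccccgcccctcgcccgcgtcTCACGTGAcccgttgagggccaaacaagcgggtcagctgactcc
Their differences across weaning were -2.75 for Gla, -2.13 for Mcoln1, -1.23 for Ctsa (a serine carboxypeptidase) and -1.11 for Ctsd (cathepsin D). Cln3, a lysosomal membrane protein and the remaining gene with the core, differed by -0.22, so presence of these letters did not go with a 2-fold difference in every case.

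The same endocytic and lysosomal genes also separated the germ-free preweaned samples from each other. Meltf read 14.62 in the first of them and 6.80 in the second, Mamdc4 14.82 and 7.81, and Glb1 13.74 and 10.81. The median gap between that pair was 1.57 in the endocytosis list and 1.35 in the lysosomal list, against 0.00 over all genes. In 21 of the 30 lower lysosomal genes the SPF difference exceeded the gap of that gene in the pair. Over all genes tested this held for 782 of the 1037 that were 2-fold or more lower, so the count is not particular to lysosomal genes. The humanized preweaned sample read 6.57 for Meltf and 10.63 for Glb1, close to the postweaned SPF sample for Meltf. Samples labelled preweaned thus lay at both ends of this gene group, and how far each mouse was from weaning cannot be told apart from the label.

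**Figure D3:**
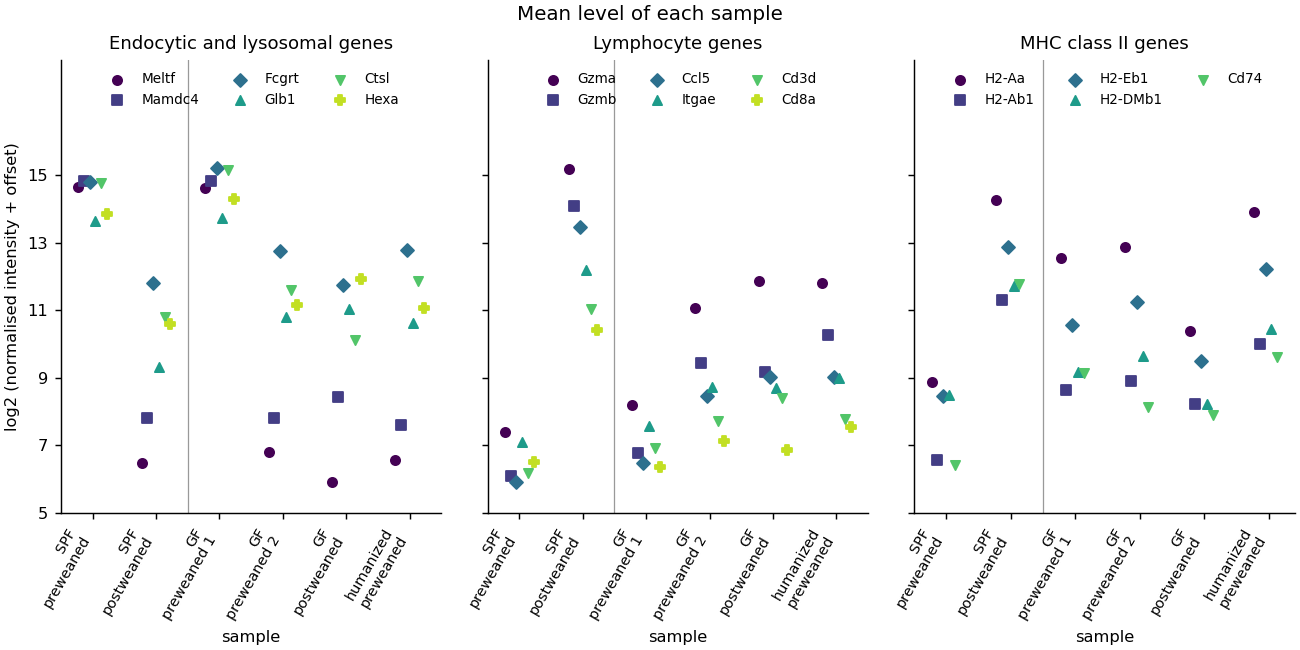
Mean level in each of the 6 samples (SPF left of the grey line; GF, germ-free) for endocytic and lysosomal genes, lymphocyte genes and MHC class II genes, on the log2 scale. The suckling genes are high in SPF preweaned and GF preweaned 1, and lymphocyte genes are highest in SPF postweaned. MHC class II genes are lower in SPF preweaned than in both GF preweaned samples. The SPF and GF postweaned samples lay in 1 array set, and the GF preweaned and humanized samples in another.

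Genes of early life were lower too. Of 13 tested fetal and early postnatal genes, 7 were 2-fold or more lower and 0 higher, against 9.11% and 11.3% of all genes. The median was -1.05. In 3 of the 7 the difference exceeded the gap of the germ-free preweaned pair. The median gap of that pair in this list was 1.41. Ghr, the growth hormone receptor, was 22.4-fold lower, from 12.19 ± 0.10 to 7.71 ± 0.13. Igf2bp3, an RNA-binding protein of fetal tissue, was 11.4-fold lower, and the imprinted growth regulators Plagl1 and Cdkn1c were at least 7.97-fold and 5.21-fold lower. H19, an imprinted RNA, was 2.13-fold lower, while its imprinted neighbour Igf2 differed by -0.63.

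Genes for burning fat and making ketones were lower after weaning. In the list of fatty acid oxidation and PPARα targets, 15 of 34 tested genes were 2-fold or more lower and 1 was higher. The shares over all genes were 9.11% and 11.3%, and the list median was -0.89. Bdh1, which makes the ketone body β-hydroxybutyrate, was 6.63-fold lower, from 12.18 ± 0.01 to 9.45 ± 0.22. Acot1 and Acot2, acyl-CoA thioesterases, were at least 39.3-fold and 7.54-fold lower. Cpt1a, which admits long-chain fatty acids to mitochondria, was 5.18-fold lower. Ppara, the nuclear receptor that switches on these genes, was itself 7.35-fold lower, at 10.87 ± 0.05 before and 8.00 ± 0.14 after. Pdk4, the kinase that holds glucose carbon back from oxidation, was 10.3-fold lower, while Hk2, a hexokinase, was 8.12-fold higher. Subunits of the respiratory chain shifted less: 50 of 60 tested were lower but 6 reached 2-fold, with Ndufa3 of complex I at -1.39 and a median of -0.38.

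Some enzymes through which the suckling intestine makes glucose and arginine were also lower. Of 12 tested genes of gluconeogenesis and fructose metabolism, 5 were 2-fold or more lower and 1 higher, with a median of -0.79. Fbp1, fructose bisphosphatase, was 7.88-fold lower, and G6pc, which releases free glucose, 4.31-fold. Pck1, phosphoenolpyruvate carboxykinase, was 3.04-fold lower, a floor because all 3 preweaned arrays were saturated. Pcx, pyruvate carboxylase, was 3.07-fold higher. Of 10 tested genes of arginine, citrulline and proline synthesis, 4 were lower and 0 higher by 2-fold, with a median of -0.51 that was 0.00 with the mean of each gene's probes. Oat, ornithine aminotransferase, went from 15.52 ± 0.03 to 12.92 ± 0.22 (6.07-fold), Aldh18a1, which makes its substrate from glutamate, was 4.98-fold lower, and Asl, argininosuccinate lyase, 3.30-fold. Cps1 and Otc, the mitochondrial enzymes that lead to citrulline, differed by 0.30 and 0.23.

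Genes for the digestion and uptake of sugars were more often higher than lower. Of 11 tested disaccharidases and hexose transporters, 5 were 2-fold or more higher and 0 lower, with a median of 0.73. Lct, the lactase that splits milk sugar, read 14.96 ± 0.08 before and 13.99 ± 0.17 after weaning, 1.96-fold lower and still among the brightest genes. Sis, sucrase-isomaltase, which splits sucrose and starch products, was 2.49-fold higher, from 13.04 ± 0.09 to 14.35 ± 0.06. Treh, trehalase, differed by 0.73. The sugar sensor or transporter Slc5a4a was 6.89-fold higher, and Slc2a5, the fructose transporter GLUT5, 4.05-fold. The germ-free preweaned samples themselves read 9.04 and 15.03 for Sis, and 1 gene of this list differed by 2-fold beyond the gap of that pair.

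Of 19 tested brush border peptidases and related genes, 8 were 2-fold or more higher and 0 lower, with a median of 0.76. Of all genes 11.3% were higher and 9.11% lower. In 4 of the 8 the difference exceeded the gap of the germ-free preweaned pair. The median gap of that pair in this list, first sample minus second, was -1.25. Tmprss15 read 6.63 ± 0.09, not detected, before weaning and 12.41 ± 0.05 after. Slc15a1, the transporter of di- and tripeptides, was at least 6.81-fold higher, Slc6a19, the main transporter of neutral amino acids, 4.72-fold, and Anpep, aminopeptidase N, 3.39-fold. Among 17 tested amino acid transporters 5 were higher and 3 lower, with Slc38a1 at -1.76.

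Genes of cholesterol synthesis were mostly higher. Of 23 tested genes, 22 were higher, 11 of them 2-fold or more, and 0 were lower by 2-fold, with a median of 0.85. Sqle, squalene epoxidase, was detected on no preweaned array and was at least 8.44-fold higher. Idi1, which acts between mevalonate and squalene, went from 7.76 ± 0.18 to 10.42 ± 0.23, 6.30-fold higher, and Fdft1, which makes squalene, was 5.02-fold higher. Of the members tested 9 were above background only after weaning. Among the 14 above background on both sides 3 were 2-fold higher, and the median was 0.66. The letters TCACNCCAC, the core of the sterol regulatory element, occurred on either strand in 0 of the 15 members with a promoter window and in 1.44% of tested genes. Genes of chylomicron assembly changed at about the share of all genes. Of 28 tested, 4 (14.3%) were higher and 3 (10.7%) lower, against 11.3% and 9.11% of all genes, and the median was 0.06. Apob, the chylomicron scaffold, was 3.11-fold higher and Plin2, which coats lipid droplets, 4.89-fold lower.

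Bile acid uptake, a hallmark of the ileum, was split. Slc10a2, the apical bile acid transporter, was detected on no preweaned array and read 9.16 ± 0.15 after weaning, at least 3.38-fold higher. Fabp6, which binds bile acids in the ileal cell, was 2.80-fold higher, from 11.78 ± 0.04 to 13.26 ± 0.06, Slc51b, a subunit of the exporter, 3.36-fold, and Abcc3 3.63-fold. Fgf15, the hormone through which the ileum restrains bile acid synthesis in the liver, was 7.29-fold lower, from 11.56 ± 0.10 to 8.70 ± 0.05. In all 5 of 9 tested genes were 2-fold higher and 1 lower, with a median of 1.27. The difference exceeded the gap of the germ-free preweaned pair in 2 of the 5 higher genes and not in Fgf15. Fabp6, which marks the ileum, was bright in both samples. Of 17 tested genes of the distal ileum 5 were higher and 3 lower by 2-fold, with a median of 0.28, and of 16 tested genes of the proximal small intestine 4 were higher, Tmprss15 and Trpv6 among them, and 2 lower, with a median of 0.37.

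Mineral handling changed in a few genes. Trpv6, the apical calcium channel, was at least 14.5-fold higher, while Slc34a3, a phosphate transporter, was 6.45-fold lower. Slc11a2, the apical importer of iron, went from 13.42 ± 0.02 to 10.55 ± 0.06, 7.31-fold lower, and Hmox1, which frees iron from haem, was 4.68-fold lower. Heph, the ferroxidase that partners iron export, was 2.88-fold higher. The metallothioneins Mt2 and Mt1, which bind zinc, were 14-fold and 4.47-fold lower. Mt1 was saturated on all 3 preweaned arrays, which makes its value a floor. Of 21 tested genes of retinoid metabolism 6 were lower and 1 higher by 2-fold, against 9.11% and 11.3% of all genes. Lrat, which stores retinol as its ester, was 2.66-fold lower.

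**Figure D4:**
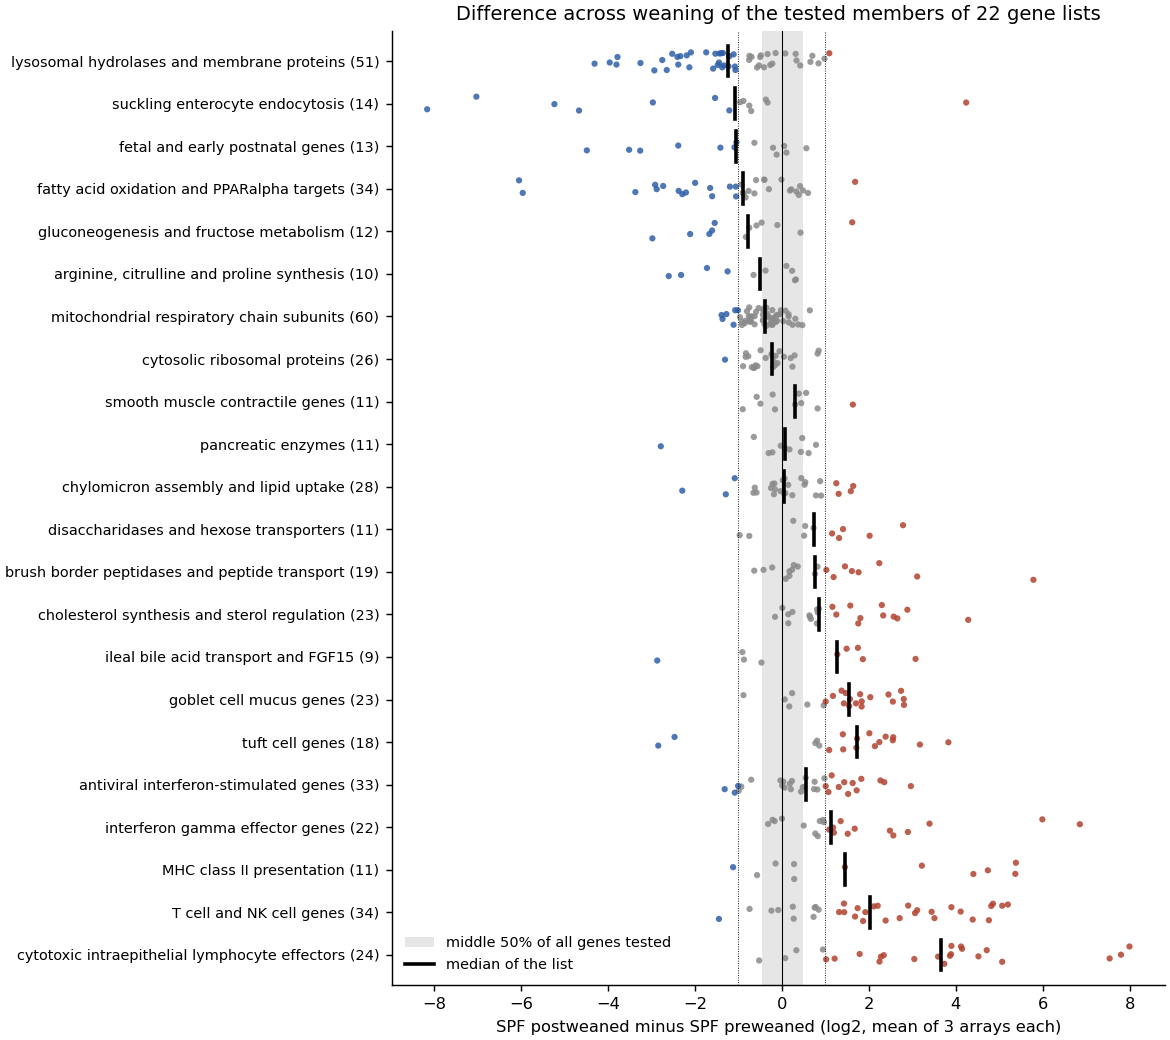
Postweaned minus preweaned difference (log2) of each tested member of 22 gene lists, with members 2-fold or more higher in red and lower in blue; the black bar is the list's median and the grey band holds the middle 50% of all genes. Medians run from -1.23 for lysosomal genes to 3.66 for cytotoxic lymphocyte genes.

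Secretory cells of the epithelium were represented by higher transcripts after weaning. Of 23 tested goblet cell genes, 17 (73.9%) were 2-fold or more higher and 0 lower, against 11.3% and 9.11% of all genes. The median was 1.55. In 15 of the 17 the difference exceeded the gap of the germ-free preweaned pair. The same held for 1070 of the 1285 higher genes among all tested, so that count is not particular to goblet cell genes. Muc2, the gel-forming mucin, read 12.79, 12.60 and 12.61 before weaning and 15.55, 15.38 and 15.50 after it, 6.99-fold higher. Clca1, a mucus-processing protease, was 6.97-fold higher, a floor with 2 saturated postweaned arrays. Agr2, the disulphide isomerase needed to fold Muc2, was 6.68-fold higher, Fcgbp, a mucus component, 5.46-fold, and Spdef, the goblet cell transcription factor, 2.69-fold. In whole tissue RNA, more cells of a type and more RNA per cell cannot be told apart.

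Tuft cells, which sense luminal compounds through a taste-like cascade, gave 13 of 18 tested genes 2-fold or more higher and 2 lower, with a median of 1.72. Trpm5, the cation channel of that cascade, was at least 5.63-fold higher and Sh2d6 5.89-fold. Fyb, at least 6.00-fold higher, is also an adaptor of T cells. The lower members were Hpgds (7.17-fold), a prostaglandin D synthase, and Ltc4s (5.53-fold), the leukotriene C4 synthase. Dclk1, a widely used tuft marker, was detected after weaning only, at 7.31 ± 0.15, with no fold beyond its bound. With dim genes at their bounds the median of the list was 1.09. Of 23 enteroendocrine genes 8 were higher and 2 (8.70%) lower, against 11.3% and 9.11% of all genes. Cck, the hormone cholecystokinin, was 3.32-fold higher and Slc18a1, the vesicular monoamine transporter of endocrine cells, 5.41-fold lower.

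Antimicrobial lectins differed widely in size. Beside Reg3g, at 9.15 ± 0.16 before and 15.44 ± 0.13 after weaning, its relative Reg3b was already bright at 12.88 ± 0.04 and was 5.45-fold higher. Reg1 was 2.08-fold higher, Reg3a differed by 0.54, and Dmbt1, a scavenger receptor that binds bacteria, was 3.67-fold higher. In total 5 of 11 tested genes of this kind were higher and 0 lower. Of the Paneth cell genes 3 of 7 tested were higher, among them Lyz1, lysozyme, at 2.69-fold. Nos2, the inducible nitric oxide synthase, was at least 12.6-fold higher. Pigr, the receptor that carries IgA into the lumen, went from 11.69 ± 0.08 to 13.78 ± 0.04, 4.25-fold higher, and Jchain, which links IgA dimers, was detected after weaning only and was at least 1.31-fold higher.

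Of 34 tested T cell and NK cell genes, 27 were above background only after weaning. Those genes entered through the side where they were high, and the preweaned arrays had the higher detection floor. Of the 34 tested, 24 were 2-fold or more higher and 1 lower, with a median of 2.02. Cd3d, a chain of the T cell receptor complex, read 6.08, 6.38 and 6.07 on the preweaned arrays, none detected, and 11.11, 10.97 and 11.02 on the postweaned arrays, at least 12.4-fold higher. Lck, the kinase that starts T cell receptor signalling, was at least 15-fold higher, Cd8a, a CD8 chain, at least 8.09-fold, and Cd69, a marker of activated and tissue-resident lymphocytes, at least 12.9-fold. Itgae, the CD103 integrin that holds lymphocytes to epithelial E-cadherin, was 33.5-fold higher, and its partner Itgb7 7.48-fold. With undetected genes at their bounds the list median was 1.12. Over the 7 members above background on both sides it was 0.25, with 2 higher and 1 lower by 2-fold. B cell genes moved less, with 5 of 16 higher and a median of 0.53, and Cd79a, of the B cell receptor, overlapped between samples at 8.87 ± 0.38 and 8.93 ± 0.42.

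Cytotoxic effectors had the highest median of all lists, 3.66, with 20 of 24 tested genes 2-fold or more higher and 0 lower. Of these members 19 were above background only after weaning. With undetected genes at their bounds the median was 2.29, and over the 5 genes above background on both sides it was 1.02. Besides the granzymes and Ccl5, the chemokines Ccl4 and Ccl3 were at least 13.3-fold and 8.15-fold higher. Nkg7, of cytotoxic granules, was at least 10.03-fold higher, Srgn, the proteoglycan that packs granzymes, at least 12.1-fold, and Klrd1, the CD94 receptor of NK cells, at least 8.80-fold. Ifng, the cytokine interferon γ, did not follow them: it read 8.37 ± 0.10 before and 7.85 ± 0.26 after. Il15, an epithelial cytokine that sustains such lymphocytes, was 3.10-fold higher, and its receptor chain Il15ra 3.06-fold. The germ-free postweaned sample read 11.86 for Gzma and 8.40 for Cd3d. The SPF postweaned sample was the highest of all 6 for both genes.

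MHC class II genes, whose products present peptides to helper T cells, were higher in 6 of 11 tested members and lower in 1 at 2-fold. The list median was 1.45, and 0.91 with undetected genes at their bounds. Of the 11 members 4 were above background only after weaning. Over the 7 above background on both sides the median was 0.28, with 3 higher and 1 lower. H2-Aa, H2-Ab1 and H2-Eb1, which encode class II chains, were 41.6-fold, at least 15.1-fold and 21.1-fold higher. Cd74, the invariant chain that guides them, was at least 20.8-fold higher, and H2-DMb1, which loads peptide, 9.30-fold, with preweaned arrays that spread from 7.53 to 9.33. The member that was lower was Ifi30, a thiol reductase of the class II compartment, at -1.12. Before weaning the SPF sample was the lowest of all 6 for H2-Aa, at 8.87 ± 0.24. The germ-free preweaned samples read 12.55 and 12.88 and the humanized sample 13.89. Those samples lay in another array set than the SPF samples, so array set and microbiota cannot be told apart here.

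Class II promoters share a Y box whose core is an inverted CCAAT. On either strand CCAAT was present in 6 of 8 members with a window and in 42.1% of tested genes, a common motif. The windows of 3 higher members are shown around ATTGG, in capitals with any CCAAT, which began at -48, -59 and -61 from the gene start (RefSeq, GRCm38.p6) in H2-Aa, H2-Eb1 and H2-DMb1. They were chosen after their positions were seen. In H2-DMa, 2.73-fold higher, ATTGG began at -198, and in H2-Oa, which differed by -0.15, at -43, so the position did not go with the difference in every case.
H2-Aa, chr17:34287831-34287907, minus strand: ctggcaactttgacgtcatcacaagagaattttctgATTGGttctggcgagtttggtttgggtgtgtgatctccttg
H2-Eb1, chr17:34305772-34305848, plus strand: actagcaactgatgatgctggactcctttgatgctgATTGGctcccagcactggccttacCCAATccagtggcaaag
H2-DMb1, chr17:34153094-34153170, plus strand: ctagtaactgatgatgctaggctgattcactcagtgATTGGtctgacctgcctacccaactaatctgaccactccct

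Interferon-responsive genes were more often higher than lower. Of 22 tested effectors of interferon γ, 12 (54.5%) were 2-fold or more higher and 0 lower, with a median of 1.13, against 11.3% and 9.11% of all genes. Of these 22 members 8 were above background only after weaning. Among the 14 above background on both sides 5 were 2-fold higher, with a median of 0.85. Ido1 and Ubd led, followed by Batf2, a transcription factor, at least 7.08-fold higher, and Nlrc5, which switches on MHC class I genes, at least 3.06-fold. Zbp1, a sensor of left-handed nucleic acids, was 5.90-fold higher. Irf1, itself an early target, overlapped between samples, at 11.55 ± 0.25 and 11.56 ± 0.15. Among 33 antiviral interferon-stimulated genes 12 were higher and 3 (9.09%) lower, the latter against 9.11% of all genes, with a median of 0.55. Oas2 and Oasl1, of the oligoadenylate synthetase family, were 7.81-fold and 5.11-fold higher, Stat2, a carrier of the interferon signal, 3.55-fold, and Isg15, a ubiquitin-like protein, 2.87-fold. Bst2, tetherin, which holds budding virions, was 2.49-fold lower, and Xaf1 and Rsad2 were 2.12-fold and 2.01-fold lower.

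The letters TTTCNNTTT, the core of the interferon response element, were found on either strand in 14 of 23 antiviral genes with a window (60.9%) and in 9.68% of tested genes. Windows of 3 higher genes and of Xaf1 are shown, with every match in capitals, because the motif was present in members of both directions.
Oasl1, chr5:114923027-114923107, plus strand: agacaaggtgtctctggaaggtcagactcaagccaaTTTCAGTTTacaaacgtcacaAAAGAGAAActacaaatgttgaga
Stat2, chr10:128270248-128270320, plus strand: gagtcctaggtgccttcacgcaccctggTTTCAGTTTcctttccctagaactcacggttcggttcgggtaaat
Isg15, chr4:156200851-156200931, minus strand: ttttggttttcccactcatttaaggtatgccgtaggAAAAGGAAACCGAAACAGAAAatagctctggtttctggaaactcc
Xaf1, chr11:72301576-72301656, plus strand: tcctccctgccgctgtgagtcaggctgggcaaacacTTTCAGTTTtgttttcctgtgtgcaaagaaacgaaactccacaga
The differences were 2.35 for Oasl1, 1.83 for Stat2, 1.52 for Isg15 and -1.08 for Xaf1.

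Myeloid genes were mixed. Of 23 tested macrophage, dendritic cell and C1q genes 11 were higher and 1 lower at 2-fold, with a median of 0.91 that became 0.12 with undetected genes at their bounds. Itgax, the CD11c integrin, was at least 2.87-fold higher. C1qc, a chain of complement C1q, was at least 4.69-fold higher with postweaned arrays between 9.03 and 10.40, C1qa was 2.28-fold higher, and Csf1r, the growth factor receptor of macrophages, was 12-fold lower, from 10.90 ± 0.11 to 7.32 ± 0.15. Among other complement genes, C2, C3 and the regulators Cfi and Cd59a were 2.96-fold to 6.34-fold lower. Of 27 Toll-like receptors and adaptors 8 were higher and 0 lower; Tnfaip3, a brake on NF-κB, was 4.87-fold higher, while the adaptor Myd88 differed by 0.22.

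Clock genes did not move together: of 15 tested, 3 were higher and 4 lower, against 11.3% and 9.11% of all genes. Dbp, an output of the clock, was 9.83-fold higher and Nr1d2 4.81-fold, while Nr1d1, its close relative, was 3.06-fold lower. No source used here gives the hour of sampling, and its part was not tested. Prdm1, named in the mouse as a guide of the suckling-to-adult switch, differed by 0.12 and overlapped between samples. Cldn2, a claudin that forms cation pores, was 8.05-fold lower.

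Genes of the gut wall changed at about the shares of all genes, 11.3% higher and 9.11% lower. Many were above background in neither sample, Myh11 and Col1a1 among them. Of the genes on the array 11 of 20 were tested in the smooth muscle list and 16 of 36 in the fibroblast list. In the smooth muscle list 1 of 11 tested genes was higher (Flna, 3.10-fold) and 0 were lower, and in the fibroblast list 2 of 16 were higher and 2 lower, with Timp3 at least 14.6-fold lower. Of 11 pancreatic enzymes 1, Ctrb1, was lower, at least 5.61-fold, and 0 were higher. Among 39 cell cycle genes 7 (17.9%) were higher and 1 (2.56%) lower, with a median of 0.49 that was 0.13 at bounds. Ribosomal protein genes gave 0 higher and 1 lower of 26.

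Y-linked transcripts differed between the samples. Ddx3y read 9.17 ± 0.12 before weaning and was detected on no postweaned array, at least 5.37-fold lower. Uty was at least 4.91-fold lower and Eif2s3y at least 1.98-fold, both also undetected after weaning, and Kdm5d differed by -0.72. Xist was above background in neither sample. The samples thus differed in Y-linked transcripts as well as in weaning, so sex and weaning cannot be told apart here. The part of sex in the other differences was not tested.

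Beside these values stand those of germ-free weaning, which used other mice and arrays. The SPF samples and the germ-free postweaned sample lay in 1 set of arrays, in which 13 probes were bright that were dark elsewhere. The germ-free preweaned and humanized samples lay in another set, marked by 14 such probes. Array set and weaning therefore cannot be told apart in germ-free mice. Nor can array set and microbiota be told apart between SPF and the other preweaned samples. Of the 1285 genes higher in SPF, 152 (11.8%) were 2-fold or more higher in germ-free postweaned than in both germ-free preweaned samples, and 115 (8.95%) were lower than in both, against 5.81% and 5.08% of all genes. Of the 1037 genes lower in SPF, 134 (12.9%) were lower and 28 (2.70%) higher. limma's test of the difference between the 2 weaning effects called 0 genes. Its smallest adjusted p was 0.761, and before adjustment 767 genes had p under 0.05.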

How the data were processed

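RNA of the 6 ileum samples was amplified, labelled with Cy5 and hybridised to Phalanx Mouse OneArray slides, per the labels' protocols. The deposited raw intensities, per the file headers, hold some values below 0, so that a background had been subtracted, by a method not stated there. The authors also deposited, per the file headers, the detection p-value of every probe, array by array; how it was made is not stated there. Here the intensities of 21 arrays were quantile-normalised, set to at least 0, given an offset of 50 and logged (log2), and arrays were averaged per sample. The SPF samples were read on 3 arrays each, and the number of arrays limits the precision. Probes were named from the files and RefSeq (GRCm38.p6): of 26423 probes 22553 had 1 symbol, 237 several and 3633 none. The brightest passing probe stood for a gene. In 959 genes with 2 or more passing probes, 1 gene (Axl) had probes 2-fold apart in opposite directions. The fold was the description, with 1 sample a group. limma 3.58.1 in R 4.3.3 fitted group means to all 6 samples with Benjamini-Hochberg adjustment. The code was tried on simulated data with the same SD for every gene. That setting differs from the uneven gaps of the germ-free preweaned pair, so it does not test the fit to these data. The p-values of this fit measure only the spread of the germ-free preweaned pair. That spread includes the wide gaps in endocytic, lysosomal, early postnatal and brush border genes given above, and its source was not tested. The deposited series table, which is the unnormalised mean of the arrays, served as an alternative only.

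The genes named were the 15 per direction with the largest difference at its bound whose arrays did not overlap, and up to 8 per list by size, with members needed for the opposite direction, and all sex-linked genes. Tfeb, Mcoln1, Ctsa, Ctsd, Cln3, Cd79a, Dclk1, Ifng, Irf1, Otc, H2-Oa, Prdm1 and Myd88 were named after their values were seen. Members and all 65 lists were chosen with earlier results of these data known. Lists got counts and medians and no test. A few genes that the rule selects are not reported here.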

Additional observations from a re-analysis of the deposited data

Results flagged for a closer look

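Of the genes named above, 154 differed by 2-fold or more. In 13 of these the SPF difference and germ-free weaning ran in opposite directions by 2-fold or more, against both germ-free preweaned samples. The difference was not tested gene by gene beyond limma's fit, which called 0 genes, and germ-free weaning crosses 2 sets of arrays. H2-Aa was 5.38 higher (log2) in SPF and -2.33, the mean against both samples, in germ-free mice, and H2-Eb1 4.40 and -1.40. Ubd stood at 5.99 and -1.90, and Tmprss15 at 5.78 and -4.00. C1qc gave 3.00 and -2.53 and C1qa 1.19 and -2.76, both dim before weaning in SPF. Among epithelial genes Dmbt1 gave 1.88 and -1.41, Reg1 1.06 and -4.52, Cck 1.73 and -2.38, Apob 1.64 and -2.02 and Heph 1.53 and -1.33. Flna gave 1.63 and -2.27. In the reverse sense C3 was -1.57 in SPF and 3.19 in germ-free mice. Over all genes tested, 115 of the 1285 higher in SPF (8.95%) and 28 of the 1037 lower (2.70%) also ran the opposite way by 2-fold. Such reversals are therefore not particular to the named genes.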

How the results depend on the processing

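The 2-fold counts kept within 1.5 times their size (1285 higher, 1037 lower) under the alternatives tried, except these. Requiring detection on all arrays of both sides left 635 higher genes, and keeping genes above background on both sides, chosen after seeing the data, left 754. The deposited series table, with no normalisation between arrays, gave 762 higher and 2207 lower genes. There 25.7% of the genes at 2-fold were higher, against 55.3%, and the median of all genes moved to -0.42. Median centring moved that median to -0.13 and left 1163 higher and 1255 lower genes, 48.1% of them higher. Leaving out each array in turn gave 1243 to 1371 higher and 981 to 1094 lower genes. Of 170 genes named, 0 of those that differed by 2-fold or more changed direction under any alternative, while Cd79a, Irf1, Myd88, Prdm1, Cps1, Otc and H2-Oa, all under 2-fold, changed sign under at least 1. With detection required on all arrays of both sides the list medians of tuft cell genes (-0.0413) and of T cell and NK cell genes (-0.74) reversed, because that filter drops genes undetected before weaning. The arginine list's median was 0.00 with the mean of each gene's probes, against -0.51.

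limma called 0 genes in each alternative but one: an additive fit without germ-free preweaned replicate 2 called 220, and the cause was not tested. limma with normalisation over the SPF arrays alone was not run, since it needs all samples. No paired analysis was possible because the SPF groups hold 1 sample each. Dim genes are limited by the higher detection floor of the preweaned arrays.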
